A study of Homo sapiens with 14 samples.

Results

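A fall in the expression of cell division genes separated 2 neighbouring pairs of arrays early in a long culture of WI-38, a strain of fibroblasts derived from human lung. The series holds 14 Affymetrix human Gene 1.0 ST arrays of such cells, 2 for each of 7 labels, and 4 of these 14 arrays are described here. The earlier pair is the array labelled primary replicate 2, at passage 19, and the array labelled A39 replicate 1, hTERT-immortalized at passage 39. The later pair is A39 replicate 2 and A50 replicate 1, hTERT-immortalized at passages 39 and 50. All 4 cultures were grown in the same serum-containing medium and passaged weekly at a fixed seeding number, and the labels call the RNA samples of each passage biological duplicates. What the letter A stands for, how hTERT was delivered and whether the culture is 1 clone is not stated in those labels. Growth rate was not measured on the arrays, so "slowing" is a name for the lower RNA of proliferation genes.

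The pairs were chosen by the similarity of their arrays, not by their labels. Over 28869 rows, primary replicate 2 and A39 replicate 1 had a Pearson correlation of 0.993, and A39 replicate 2 and A50 replicate 1 one of 0.992. The next closest array of each of the 4 had a correlation of 0.979 to 0.982. The border between earlier and later thus runs between the 2 arrays labelled A39, and each side holds arrays of 2 labels. The labels may be displaced by one position, because the array labelled primary replicate 2 read 11.70 for TERT, the catalytic subunit of telomerase, close to the 11.62 of A39 replicate 1, while primary replicate 1 read 7.07. This displacement was not tested. Since similarity over all rows made the pairs, every difference between them below is a description and carries no p-value, and the small spread within each pair follows in part from that choice.

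Cells that leave the division cycle stop transcribing a large set of genes that are switched on in order, first those for DNA synthesis and histones and then those for mitosis. The repression is carried largely by the DREAM complex and by retinoblastoma family proteins, which act at promoters through E2F sites and through the cell cycle genes homology region (CHR). The inhibitor p21, product of CDKN1A and a target of p53, lies upstream of both. Cultured fibroblasts use this programme in quiescence, after DNA damage and in senescence, and hTERT expression allows them to pass the replicative limit.

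The difference is given as the later mean minus the earlier mean on the log2 scale of the deposited values. A row was called higher or lower where the difference was at least 1 log2 in size and both later arrays lay on the same side of both earlier ones. By this rule 187 rows were called higher, or 0.648% of all rows, and 390 were called lower, or 1.35%. After centring each array on its median the split was 125 higher and 528 lower. Counted as genes, with the brightest row standing for each of 18377 genes, 87 were called higher (0.473%) and 239 lower (1.30%). Just inside the limit the differences were -1.0 and 1.0, and just outside it -0.99 and 0.995. The later pair held the lowest values of all 14 arrays in 130 of the 239 genes called lower, against 752 of all 18377 genes. It held the highest in 29 of the 87 called higher, against 725 of all genes. The call itself favours both counts, because it asks for later values beyond both earlier ones. All genes are therefore not an even comparison.

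The level of a row mattered for the direction of small differences. Array medians were 7.30 and 7.35 in the earlier pair and 7.43 and 7.44 in the later pair. The median difference of all rows was 0.060 log2, and in 10 bins of mean level it reached 0.16 among dim rows with means of 6.45 to 6.91, against -0.03 in the brightest bin. The dimmest bin, with means below 5.33, went the other way, with a median of -0.02 and 79 rows called lower, the most of any bin. Of the 187 rows called higher, 127 lay at or below the median level of all rows, while 240 of the 390 called lower lay above it. After centring, the median difference of all rows was -0.05, a shift of over 0.1 that applies to every value below. Subtracting the median difference of genes of like level gave 151 rows called higher and 429 called lower. The plot of difference against level shows the genes called in each direction over the range of levels.

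**Figure D1:**
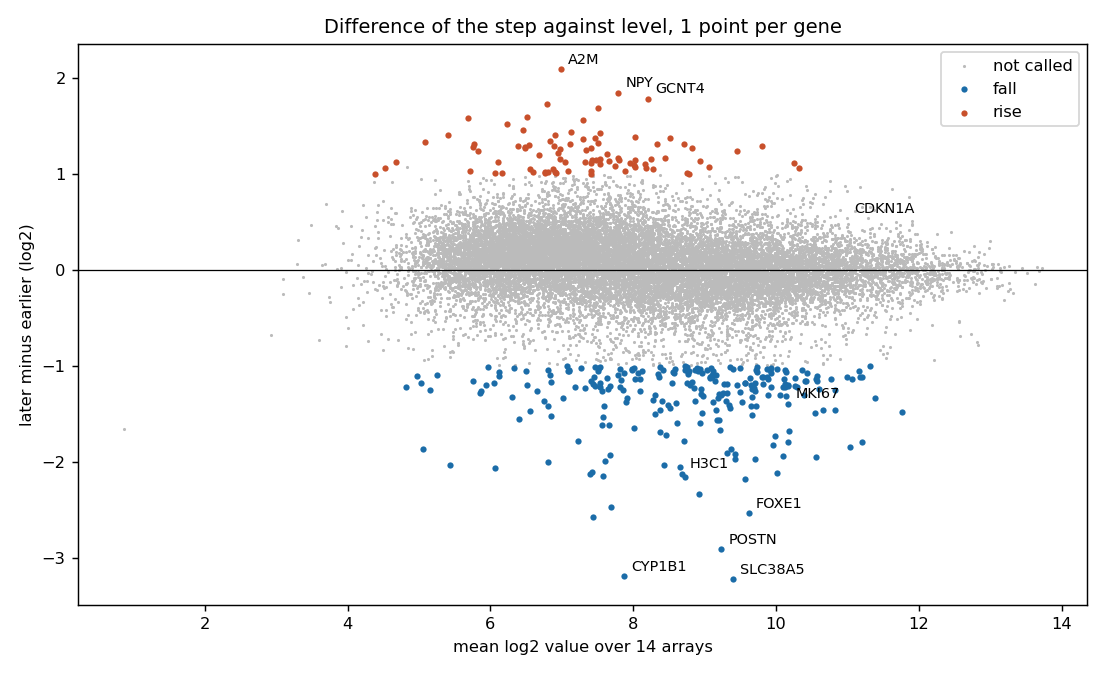
Difference of the step (later minus earlier, log2) against the mean log2 value over 14 arrays, 1 point for each of 18377 genes, with the 87 genes called higher in red and the 239 called lower in blue. SLC38A5 lies lowest at -3.22 and A2M highest at 2.09.

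The markers that gave the step its name were read in each array. MKI67, which encodes the proliferation antigen Ki-67, read 10.28 and 10.13 in the earlier arrays and 8.79 and 8.84 in the later ones, a difference of -1.39. The later arrays were the lowest of all 14, the others lying between 9.40 and 10.91. CDKN1A read 11.16 and 11.11 and then 11.70 and 11.65, a difference of 0.54 that did not reach the limit for a call. Its later values were the highest of all 14 arrays, with the 10 arrays outside the step between 10.33 and 11.52. FOXE1, a forkhead transcription factor of the thyroid, read 9.04 and 8.97 and then 6.39 and 6.56, a difference of -2.53. It read 11.44 and 11.43 in A50 replicate 2 and A58 replicate 1, the next pair of similar arrays, and 6.45 in B96 replicate 2. TERT read 11.70 and 11.62 and then 12.18 and 11.98, so hTERT was high on both sides.

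**Figure D2:**
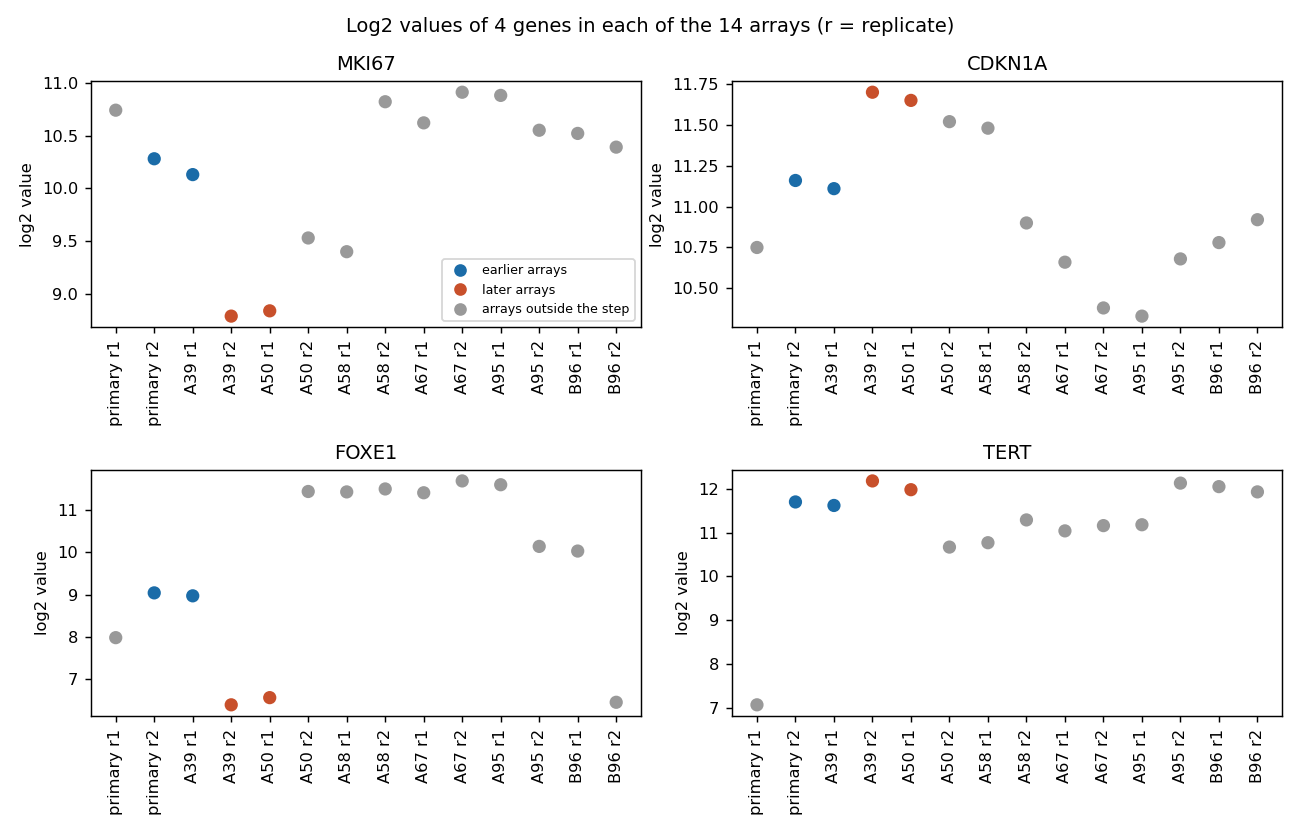
Log2 values of MKI67, CDKN1A, FOXE1 and TERT in each of the 14 arrays in label order, 1 point per array, with the earlier pair in blue and the later pair in red. MKI67 is lowest and CDKN1A highest in the later pair, FOXE1 is low in the later pair and in B96 replicate 2, and TERT is low only in primary replicate 1.

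Promoters of some genes called lower are shown first. They were picked from list genes called lower that hold the motif in the stretch shown, so each holds it by choice. Whether the motifs have a part in the differences was not tested. Each sequence is the 120 bases directly before the annotated start, from RefSeq on GRCh38.p14, read 5′ to 3′ on the gene's strand. The first set holds mitosis genes, with CHR motifs (TTTGAA) and CCAAT boxes (CCAAT), on either strand, in capitals. In MKI67 a CHR and a CCAAT box on the other strand overlap. BUB1B was also picked but is not shown, and its stretch held a CHR and no CCAAT box. PLK1 and CDC20, a mitotic kinase and the activator of the anaphase-promoting complex, had differences of -1.30 and -1.24.
MKI67 (chr10:128126424-128126543, minus strand): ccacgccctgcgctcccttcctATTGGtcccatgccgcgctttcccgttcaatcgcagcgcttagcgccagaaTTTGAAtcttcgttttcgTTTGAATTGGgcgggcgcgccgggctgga
PLK1 (chr16:23678769-23678888, plus strand): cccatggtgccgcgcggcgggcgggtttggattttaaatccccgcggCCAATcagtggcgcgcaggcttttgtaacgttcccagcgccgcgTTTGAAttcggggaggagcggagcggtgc
CDC20 (chr1:43358861-43358980, plus strand): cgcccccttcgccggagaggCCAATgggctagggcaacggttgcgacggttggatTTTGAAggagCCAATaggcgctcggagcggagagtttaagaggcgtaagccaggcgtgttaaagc
The second set holds DNA replication genes, with E2F motifs in capitals (any of TTCGCGC, or TTGGCGC, or TTCCCGC, or TTGCCGC, on either strand). In ORC1, motifs on the 2 strands overlap. TYMS was also picked but is not shown. MCM7, a subunit of the replicative helicase, and ORC1, a subunit of the origin recognition complex, had differences of -1.13 and -1.11.
MCM7 (chr7:100101398-100101517, minus strand): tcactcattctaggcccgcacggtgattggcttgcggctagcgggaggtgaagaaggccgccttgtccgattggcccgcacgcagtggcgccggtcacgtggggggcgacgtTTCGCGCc
ORC1 (chr1:52404424-52404543, minus strand): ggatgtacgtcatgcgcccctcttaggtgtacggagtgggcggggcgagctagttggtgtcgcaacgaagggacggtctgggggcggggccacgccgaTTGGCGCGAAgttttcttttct
The third set holds histone genes, with TATA boxes (TATAAA) and CCAAT boxes, on either strand, in capitals. H4C4 was also picked but is not shown, and its stretch held a TATA box and no CCAAT box.
H3C1 (chr6:26020331-26020450, plus strand): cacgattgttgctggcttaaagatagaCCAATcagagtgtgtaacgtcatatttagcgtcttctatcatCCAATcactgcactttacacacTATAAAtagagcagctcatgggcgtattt
H1-1 (chr6:26017788-26017907, minus strand): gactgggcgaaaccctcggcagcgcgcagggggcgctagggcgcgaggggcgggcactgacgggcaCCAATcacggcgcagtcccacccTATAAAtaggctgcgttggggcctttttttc

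The motifs were counted in the 250 bases before the start of the 14210 of 18377 genes with a RefSeq promoter. A CHR was found in 16 of 32 mitosis promoters (50.0%) and in 1 of 35 replication promoters (2.86%), against 10.6% of all promoters. An E2F motif was found in 19 of the 35 replication promoters (54.3%) and in 6 of the 32 mitosis promoters (18.8%), against 14.9% of all. A TATA box was found in 25 of 37 histone promoters (67.6%), against 8.56% of all, and a CCAAT box in 33 of the 37 (89.2%), against 34.4%. The 37 histone promoters also held a CHR in 11 (29.7%) and an E2F motif in 14 (37.8%). Among genes called lower outside the cell cycle, repair and histone lists, 29 of 129 promoters held a CHR (22.5%) and 28 an E2F motif (21.7%). For genes called higher, 10 of 64 promoters held a CHR (15.6%) and 6 an E2F motif (9.38%). Mitosis genes with a CHR had a median difference of -1.14 (16 genes) and those without one of -1.23 (16 genes). Replication genes with an E2F motif had a median of -0.78 (19 genes) and those without one of -0.95 (16 genes). Histone genes with a TATA box had a median of -1.46 (25 genes) and those without one of -1.29 (12 genes). These medians lie close together beside the range of each list. A match to these letters is a description of the sequence and not a bound site.

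Mitosis genes were lower in the later pair as a group. All 39 measured genes of mitosis and the G2/M phase, of 40 listed, had both later arrays below both earlier ones, which held for 27.2% of all genes. Of the 39, 29 were called lower and 0 higher, against 1.30% of all genes called lower, and the median difference was -1.16, against 0.060 for all genes. The later pair held the lowest values of all 14 arrays in 36 of the 39. PLK4, the kinase that starts centriole duplication, read 9.48 and 9.35 and then 7.90 and 8.02, a difference of -1.46. NEK2, a centrosomal kinase, read 9.69 and 9.49 and then 8.07 and 8.31, and AURKB, the kinase of the chromosomal passenger complex, 9.80 and 9.73 and then 8.46 and 8.33. The smallest difference was that of AURKA, a spindle pole kinase, at -0.42. In bulk RNA, fewer dividing cells and less of these transcripts per cell cannot be told apart.

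DNA replication and G1/S genes were lower as well, with a median difference of -0.88. Of 42 measured genes, 39 had both later arrays below both earlier ones, against 27.2% of all genes. Of the 42, 13 were called lower, against 1.3% of all genes, and 0 higher. POLE2, a subunit of DNA polymerase epsilon, read 7.99 and 8.07 and then 6.78 and 6.79. MCM5, a subunit of the replicative helicase, read 10.11 and 10.04 and then 8.90 and 8.87. TK1 and TYMS, which make thymidine nucleotides, had differences of -1.16 and -1.14. CCNE1, the G1/S cyclin E1, stood apart with 7.34 and 7.33 and then 7.97 and 8.20, a difference of 0.75, and was the 1 gene of the list whose later arrays both lay above the earlier ones. E2F1 and E2F2, transcription factors of the same transition, had overlapping values and differences of -0.08 and 0.09. In contrast to mitosis, the later pair was the lowest of all arrays in 11 of the 42 genes. On the mean deviation of the list from the 14-array means, A50 replicate 2 and A58 replicate 1 stood at -0.67 and -0.77, beside -0.76 and -0.78 in the later pair.

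Genes of homologous recombination repair, many of which are made in S phase, had a median difference of -0.76. Of 14 measured genes, 13 lay lower without overlap and 2 were called lower, against 27.2% and 1.3% of all genes. EXO1, a 5′ exonuclease, read 9.41 and 9.29 and then 8.08 and 8.06, and FANCI, of the Fanconi anaemia pathway, 9.87 and 9.78 and then 8.64 and 8.78. BRCA1 and RAD51AP1 had differences of -0.91 and -0.88. The kinase CHEK2 was the exception, with overlapping values and a difference of 0.03.

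Replication-dependent histone genes had the most negative median of the 24 gene lists, at -1.42. Their transcripts accumulate in S phase with the DNA that the histones package. Of 42 measured genes, 41 lay lower without overlap, against 27.2% of all genes. Of the 42, 31 were called lower, against 1.3% of all genes, and 0 higher. H3C1, a histone H3 gene, read 9.55 and 9.54 and then 7.36 and 7.49, a difference of -2.12. H1-1, a linker histone gene, read 10.27 and 10.25 and then 7.98 and 8.32. H2BC10 and H2BC7, histone H2B genes, had differences of -1.97 and -1.92. H4C1 was the 1 gene in the other direction, at 0.33. Members of these families are near-identical in sequence, and rows can share signal, so single members are uncertain. All 31 lie on chromosome 6, where 43 of 976 genes were called lower (4.41%, the highest share of any chromosome). Without clustered histone genes the share on chromosome 6 was 1.08%.

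**Figure D3:**
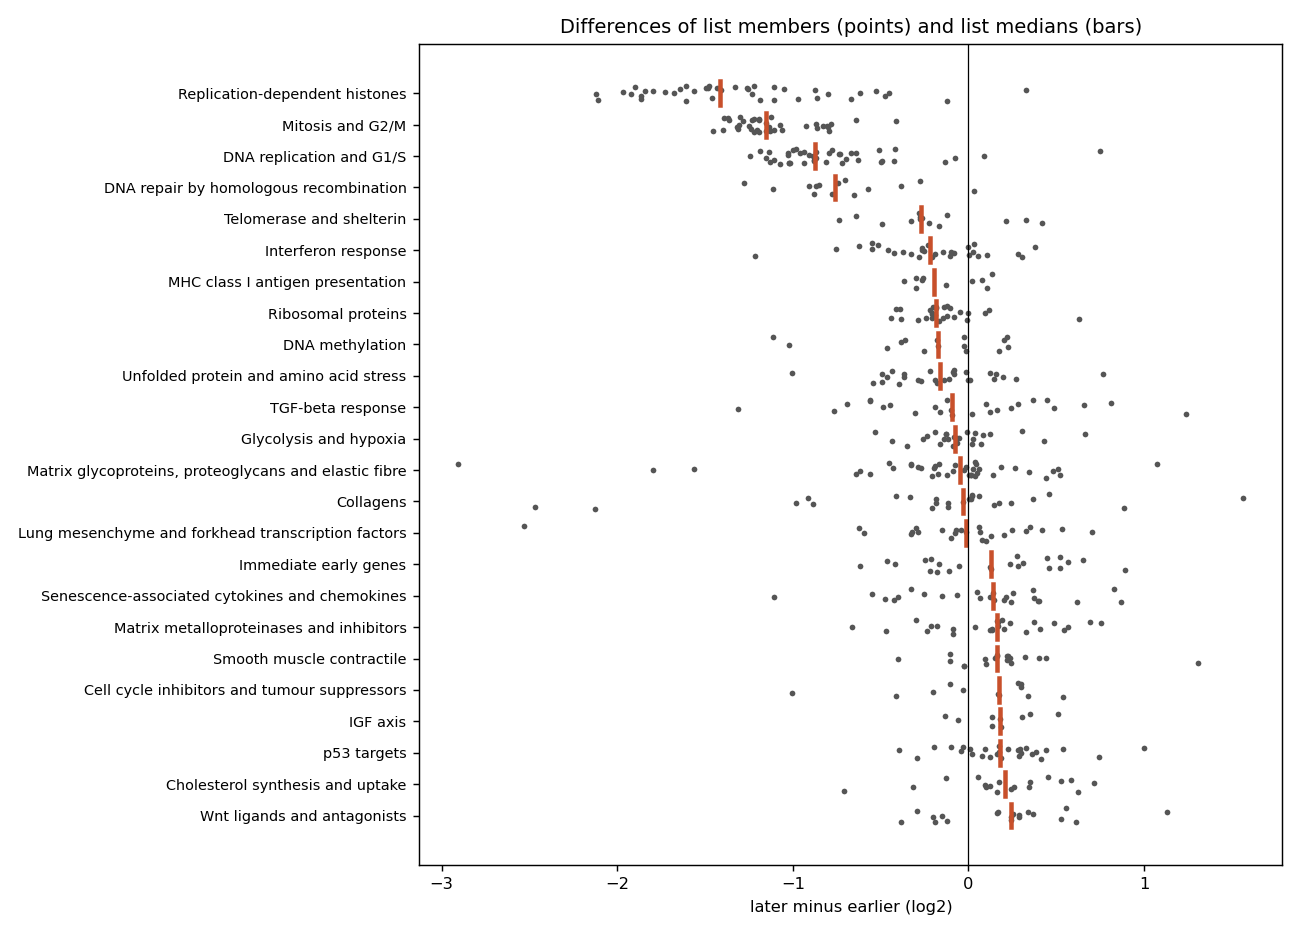
Later minus earlier difference (log2) of each measured member (points) of 24 gene lists, ordered by the list's median (red bars). Histone, mitosis, replication and repair genes lie to the left with medians of -1.42 to -0.76, and all other list medians lie between -0.27 and 0.25.

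Inhibitors of the cell cycle moved little beside this. Of 12 measured inhibitors and tumour suppressors, 0 were called higher and 1 lower, against 0.473% and 1.3% of all genes. The median difference was 0.17 (0.09 without A39 replicate 2). CDKN1C, which encodes the inhibitor p57, read 8.83 and 8.63 and then 9.03 and 9.11. CDKN2D and GAS1, a p19 inhibitor and a growth arrest gene, each had a difference of 0.30, that of CDKN2D being 0.19 without A39 replicate 2. CDKN2A, whose product p16 inhibits the kinases that start the cycle, read 9.29 and 9.25 and then 9.59 and 9.30, so its second later value lay 0.01 above the first earlier one, and its difference of 0.18 (0.03 to 0.32 with either later array left out) is within reach of the spread between the later arrays. CDKN2B, its neighbour, read 9.46 and 9.51 and then 9.68 and 9.63. The 1 gene called lower was RBL1, a retinoblastoma family member that is itself made in S phase, at -1.01.

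Genes activated by p53 had a median difference of 0.18 (0.07 after centring, with all genes at -0.05), with 22 of 28 positive. Of the 28, 1 was called higher and 0 lower, against 0.473% and 1.3% of all genes. In 19 of the 28 both later arrays lay above both earlier ones, against 40.3% of all genes. The later pair held the highest values of all 14 arrays in 12 of the 28. TP53INP1, a stress-induced nuclear protein, read 8.77 and 8.71 and then 9.77 and 9.71, a difference of 1.00. This lies at the limit, and it was 0.97 without A39 replicate 1 or A39 replicate 2 and 0.89 after centring. SPATA18, a mitochondrial quality control gene, read 8.25 and 8.23 and then 9.04 and 8.93. SESN1, a sestrin, had a difference of 0.44.

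**Figure D4:**
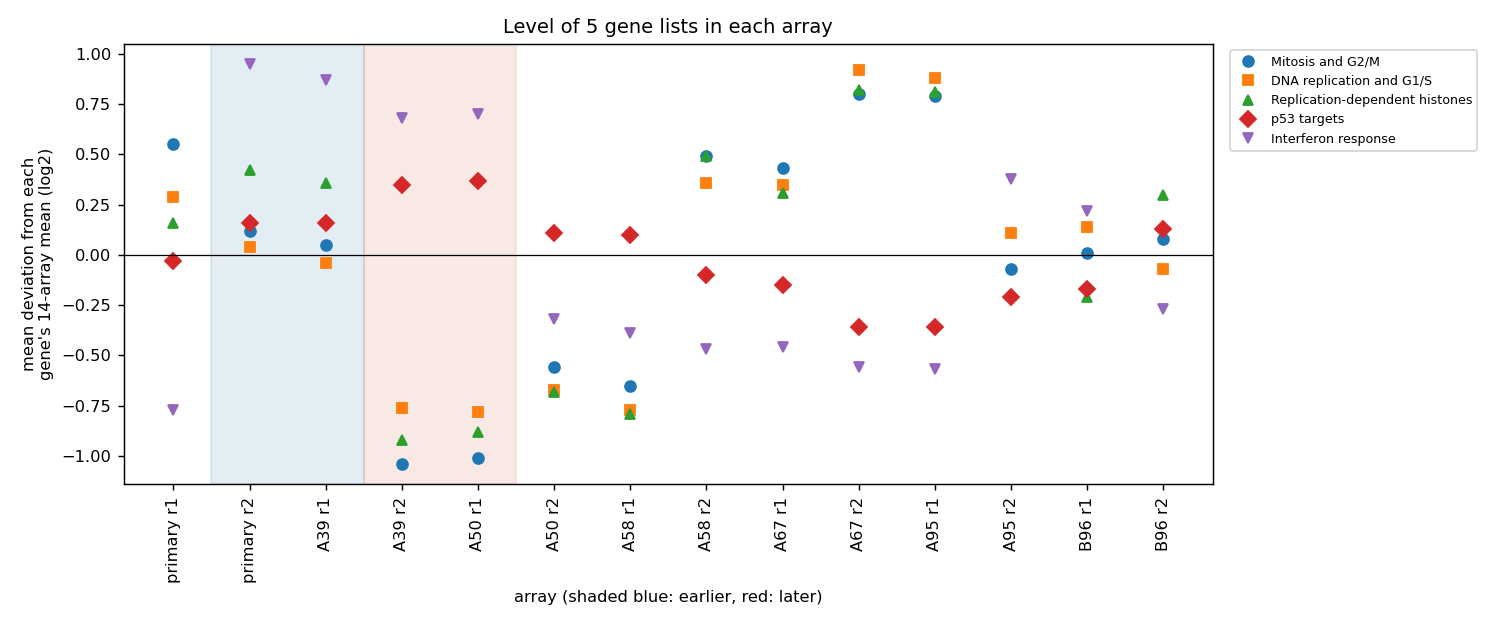
Mean deviation of 5 gene lists from each gene's 14-array mean (log2) in every array, with the earlier pair shaded blue and the later pair shaded red. Mitosis falls from 0.12 and 0.05 to -1.04 and -1.01, the p53 targets stand highest in the later pair at 0.35 and 0.37, and the interferon list stands high on both sides.

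Of the 239 genes called lower, 164 lay in none of the cell cycle, repair and histone lists, among them 4 further histone genes, H2AC15, H2AC21, H2BC4 and H4C16. Of the 12 largest falls, H3C1 was the 1 member of those lists. SLC38A5, an amino acid transporter, read 9.43 and 9.35 in the earlier pair and 6.07 and 6.27 in the later pair, a difference of -3.22. All 10 arrays outside the step lay between 8.85 and 10.56, so the later pair stood alone. CYP1B1, a cytochrome P450 enzyme that hydroxylates oestrogens and foreign compounds, read 9.58 and 9.63 and then 6.49 and 6.35. HACD4, an enzyme of very long chain fatty acid synthesis, read 8.33 and 8.23 and then 5.83 and 5.58. For these 3 genes the later values were the lowest of all 14 arrays.

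Receptors, adaptors and calcium-binding proteins were among the other large falls. AGTR1, the angiotensin II receptor, read 8.47 and 8.43 and then 6.15 and 6.44, with all arrays outside the step at 7.19 or above. EPB41L3, an adaptor between membrane and cytoskeleton, read 9.76 and 9.73 and then 7.44 and 7.38. S100A4, a calcium-binding protein used as a fibroblast marker, read 10.40 and 10.37 and then 8.03 and 8.39. SHISA3 read 8.99 and 8.97 and then 6.98 and 6.69. EPB41L3, S100A4 and SHISA3 had still lower values in some arrays outside the step, the lowest being 5.22, 6.26 and 5.78.

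Matrix genes split. POSTN, the matrix protein periostin, read 10.71 and 10.63 and then 7.67 and 7.86, and was back at 10.49 and 10.43 in A50 replicate 2 and A58 replicate 1, the lowest array outside the step reading 6.48. COL11A1, a fibrillar collagen chain, read 8.80 and 8.69 and then 6.33 and 6.22, and COL15A1, a collagen of basement membrane zones, 8.82 and 8.88 and then 6.69 and 6.76. ELN, which encodes elastin, read 10.66 and 10.51 and then 8.79 in both later arrays, and VCAN, the proteoglycan versican, had a difference of -1.57. COL4A1 and COL14A1 had differences of -0.99 and -0.92, and TNC, tenascin C, of -0.64. The opposite was seen for COL4A5, a type IV collagen chain, which read 7.62 and 7.56 and then 9.22 and 9.09. COL4A6, its neighbour on the X chromosome, had a difference of 0.89, and LAMA2, a laminin chain, of 1.08. In the lists as a whole, 12 of 25 collagens and 18 of 40 other matrix genes were positive, against 10779 of all 18377 genes. Their medians were -0.03 and -0.05, against 0.06 for all genes. After centring they were -0.14 and -0.16, against -0.05. Of these lists 3 collagens and 4 other matrix genes were called, against 0.473% of all genes called higher and 1.3% lower. The collagen median turned to 0.005 without A39 replicate 1. COL1A1 and COL1A2, the chains of type I collagen, differed by 0.06 and 0.02.

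The largest rises were smaller than the largest falls. A2M, a broad protease inhibitor, read 7.47 and 7.42 and then 9.54 and 9.53, a difference of 2.09, and was the 1 gene called higher by at least 2 log2, against 19 called lower. NPY, neuropeptide Y, read 7.53 and 7.51 and then 9.40 and 9.34, above all 10 arrays outside the step, which lay between 7.08 and 8.05. GCNT4, a glycosyltransferase, read 7.98 and 7.93 and then 9.69 and 9.79. A2M and GCNT4 were also highest in the later pair, the other arrays reaching 8.97 and 8.92.

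Cell surface proteins followed. PIEZO2, a mechanically gated channel, read 7.33 and 7.27 and then 8.99 and 9.07. ITGA11, the alpha chain of a collagen-binding integrin, read 6.91 and 7.02 and then 8.58 and 8.54. Both were lower in every array outside the step, which reached 8.01 for PIEZO2 and 8.06 for ITGA11. RGS5, a regulator of G protein signalling, read 6.75 and 6.68 and then 8.34 and 8.46, and SLITRK6, a neuronal membrane protein, 7.13 and 7.27 and then 8.73 and 8.54. These levels were reached outside the step too, up to 8.62 for RGS5 and 8.68 for SLITRK6. The other members of the 12 largest rises, GPRC6A, PARM1-AS1, LCE1B and GRIA4, had differences of 1.58, 1.53, 1.46 and 1.43. For PARM1-AS1, LCE1B and GRIA4 it was the earlier pair that stood apart, as the lowest of all 14 arrays. This was so for 24 of the 87 genes called higher, against 1057 of all 18377. The call favours this count too, because it asks for earlier values below both later ones.

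**Figure D5:**
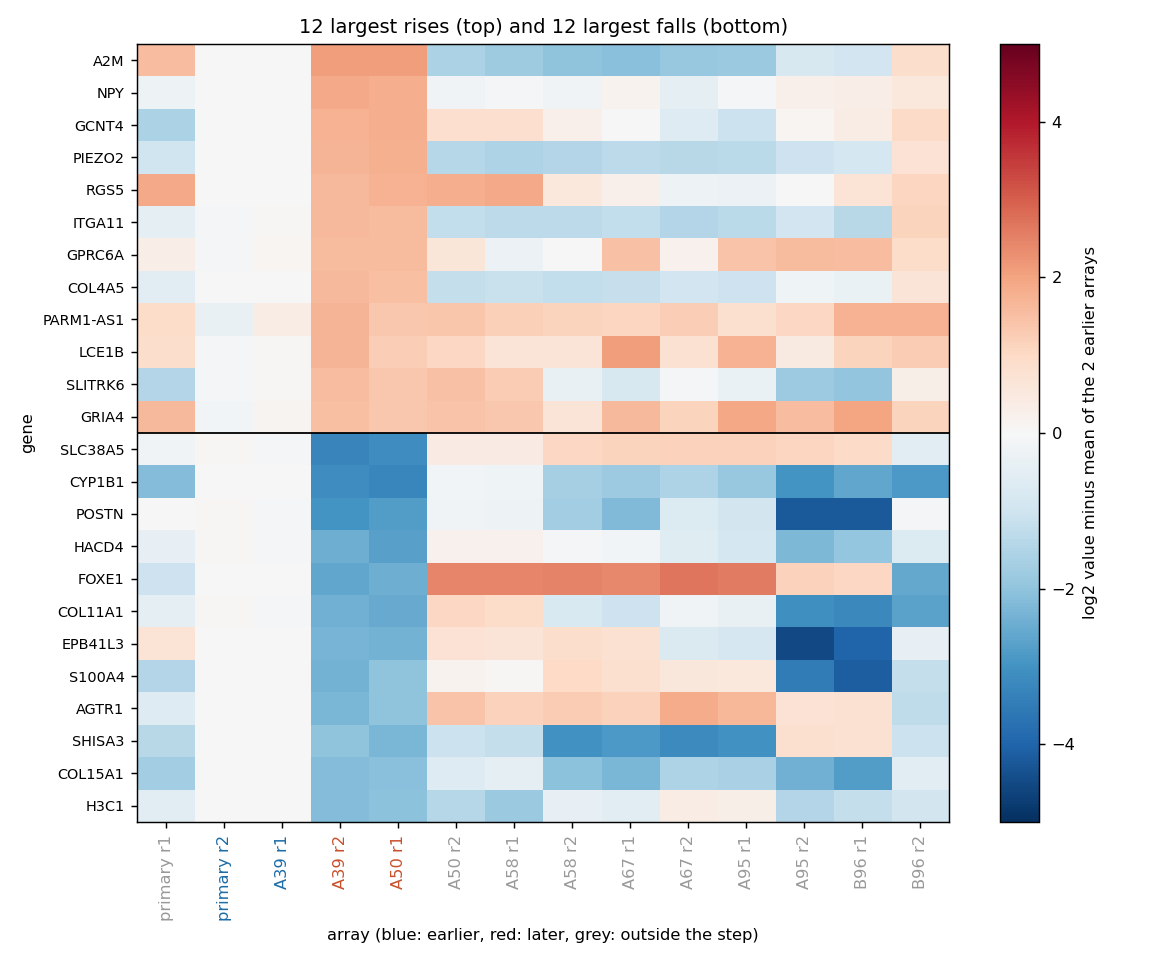
Log2 values of the 12 genes with the largest rises (top) and the 12 with the largest falls (bottom) in every array, as the difference from the mean of the 2 earlier arrays (red higher, blue lower). SLC38A5 and AGTR1 are low in the later pair and higher in all arrays outside the step, while EPB41L3 and S100A4 are low again in A95 replicate 2 and B96 replicate 1.

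Secreted factors and their regulators showed few calls. Of 25 TGF-beta response genes, 1 was called higher and 1 lower, against 0.473% and 1.3% of all genes. The median difference was -0.10, turning to 0.005 without primary replicate 2. INHBA, the activin subunit, read 10.27 and 10.11 and then 8.86 and 8.89, below all arrays outside the step. NOX4, ID3 and LTBP2 had differences of -0.77, -0.69 and -0.56. BAMBI, a decoy receptor of the family, had a difference of 1.24. Smooth muscle contractile genes had a median of 0.17 (0.06 after centring), with 13 of 19 higher without overlap, against 40.3% of all genes. LMOD1, an actin nucleator of smooth muscle, read 8.16 and 8.10 and then 9.48 and 9.40, the highest of all arrays, and CALD1, ACTG2 and MYL9 had differences of 0.44, 0.40 and 0.32.

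Senescence-associated cytokines and chemokines had a median difference of 0.14 (0.045 without A50 replicate 1). Of these 25 genes, 0 were called higher and 1 lower, against 0.473% and 1.3% of all genes. NRG1 and EREG, growth factors of the EGF family, had differences of 0.87 and 0.83. IL6, an inflammatory cytokine, read 10.61 and 10.29 and then 11.06 and 11.08, above all arrays outside the step. LIF had a difference of 0.40. The gene called lower was the chemokine CXCL12, at -1.11. Matrix metalloproteinases and their inhibitors had a median of 0.17. Of these 26 genes 0 were called, against 0.473% of all genes called higher and 1.3% lower. MMP3, TIMP4, ADAMTS5 and ADAMTS12 had differences of 0.76, 0.69, 0.57 and 0.55. For the IGF axis the median was 0.18 (0.28 without A39 replicate 1) with 0 of 9 called, against the same shares of all genes. IGFBP4, IGFBP1, IGFBP5 and IGF2R had differences of 0.51, 0.35 (0.23 without A39 replicate 2), 0.31 and 0.19. Of 19 Wnt ligands and antagonists, 1 was called higher, against 0.473% of all genes. This was DKK2, a secreted antagonist, at 6.14 and 6.23 and then 7.39 and 7.24. WNT5B, RSPO2 and RSPO3 had differences of 0.62, 0.56 (0.35 without primary replicate 2) and 0.53. The Wnt list's median of 0.25 became 0.16 after the median difference of genes of like level was subtracted.

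Interferon response genes had a median difference of -0.22, with 18 of 30 lower without overlap, against 27.2% of all genes. Of the 30, 1 was called lower, against 1.30% of all genes, and 0 higher. MX1, an antiviral GTPase, read 9.74 and 9.53 and then 8.49 and 8.35, all above the arrays outside the step, which lay between 6.10 and 6.98. OAS1, HERC6 and IFITM1 had differences of -0.76, -0.63 and -0.55. For MHC class I antigen presentation the median was -0.20 (-0.07 without A39 replicate 2). Of its 10 genes 0 were called, against 0.473% of all genes called higher and 1.3% lower. TAP2, ERAP1, PSMB8 and PSMB9 had differences of -0.37, -0.30, -0.30 and -0.27, and PSMB8 one of -0.20 without A39 replicate 2. Of 28 genes induced by misfolded protein or amino acid shortage, 1 was called lower and 0 higher, against 1.3% and 0.473% of all genes. The gene called was DDIT3, a stress-induced transcription factor, at -1.01. The list's median was -0.16, with 19 of 28 lower and 6 higher without overlap, against 27.2% and 40.3% of all genes. PHGDH, DDIT4 and SDF2L1 had differences of -0.55, -0.50 and -0.49, while the amino acid transporter SLC7A5 had 0.77.

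Metabolic and housekeeping lists moved by smaller amounts. Of all genes 0.473% were called higher and 1.3% lower, so 0 calls in lists of this size does not set them apart. Cholesterol synthesis and uptake had a median of 0.21, with 13 of 18 higher without overlap, against 40.3% of all genes, and 0 called. SQLE, squalene epoxidase, read 9.54 and 9.48 and then 10.27 and 10.18, and TM7SF2, CYP51A1 and MSMO1 had differences of 0.63, 0.59 and 0.53. Ribosomal protein genes had a median of -0.19, with 21 of 27 lower without overlap, against 27.2% of all genes, and 0 called. RPL23, RPS19, RPS9 and RPL32 had differences of -0.44 (-0.26 without A50 replicate 1), -0.41, -0.39 and -0.39. Glycolysis and hypoxia genes had a median of -0.08 (-0.13 without A39 replicate 1) with 0 of 26 called, and TPI1, ENO2, EGLN3 and PFKP had differences of -0.54, -0.44, -0.35 and -0.26. Of 23 immediate early genes 0 were called, with a median of 0.13 that ran from 0.01 without A39 replicate 1 to 0.23 without A50 replicate 1. FOSB, EGR1, DUSP6 and DUSP5 had differences of 0.89, 0.66, 0.57 and 0.52, and FOSB, which read 8.22 and 7.03 within the earlier pair, ran from 0.295 without A39 replicate 1 to 1.49 without primary replicate 2.

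Regulators of chromatin, telomeres and lineage were examined because the study's title concerns DNA methylation. Of 15 DNA methylation genes 2 were called lower, against 1.3% of all genes. These were HELLS, a chromatin remodeller needed for methylation, at -1.12, and UHRF1, which recruits the maintenance methyltransferase to new DNA, at -1.03. DNMT1, that methyltransferase, read 10.42 and 10.29 and then 9.88 and 9.90, and MBD2 had a difference of -0.39 (-0.24 without A39 replicate 2). UHRF1 is also in the replication list. Telomerase and shelterin genes had a median of -0.27 with 0 of 14 called, against 0.473% of all genes called higher and 1.3% lower. WRAP53, POT1, NOP10 and TINF2 had differences of -0.74, -0.64 (-0.365 without A39 replicate 2), -0.50 and -0.33. Among 25 lung mesenchyme and forkhead factors FOXE1 was the 1 called, against the same shares of all genes. PRRX1, TBX3 and TBX5 had differences of -0.63, -0.60 and -0.33. PRRX1, a mesenchymal homeobox factor, read 9.91 in both later arrays, below all 10 arrays outside the step.

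Markers of cell types were checked on both sides. Fibroblast markers had mean levels of 12.02 and 12.03 in the earlier pair and 11.79 and 11.83 in the later pair, with VIM at 12.96 or above in all 4 arrays and 1 of 12 markers, S100A4, called lower. Lists of endothelial, blood, epithelial, neural, muscle, fat, cartilage and bone, and thyroid markers had mean levels of 6.12 to 7.54, near or below the array medians. Of these 48 markers measured, 2 were called, both lower, HBB at -1.16 and FABP4 at -1.47, against 1.3% of all genes called lower. Epithelial markers had a median difference of 0.34, above that of each of the 24 gene lists. Of the 8, 6 were positive, against 10779 of all 18377 genes, and 5 higher without overlap, against 40.3% of all genes. With 8 genes such counts are imprecise. Subtracting the median of genes of like level gave 0.26 for the list. Blood markers had a median of 0.27, or 0.14 after that subtraction, and 0.11 without A50 replicate 1. Their part in the results above was not tested. Neither PTPRC (5.28 to 5.90), EPCAM (5.36 to 5.97) nor PECAM1 (6.20 to 7.04) rose above the median of its array, and a row's level cannot be set against another row's with certainty on these arrays. Thyroid markers, listed because FOXE1 marks that tissue, had a median difference of 0.30 (0.18 without A50 replicate 1) with 0 of 5 called.

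Tests were possible for groups as labelled and for arrays that played no part in the choice of pairs. In the groups as labelled, limma called 0 of 28869 rows (0.0%) for A39 versus primary and 0 (0.0%) for A50 versus A39, with 347 and 230 rows at an unadjusted p under 0.05. Each of these contrasts sets similar arrays on opposite sides, and A39 holds one array from each side of the step. MKI67 had an adjusted p of 1.00 in both. Without primary replicate 2, limma called 2 rows higher and 4 lower for A39 versus primary.

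The 7 arrays labelled A outside the step, at passages 50 to 95, were used to ask whether genes of the step moved with labelled passage afterwards. A displacement of labels would change the passage given to each of them, and among them too A50 replicate 2 was closest to A58 replicate 1 (r = 0.991) and A95 replicate 2 to B96 replicate 1 (r = 0.986). Limma called 0 of 28869 rows (0.0%) for a linear slope, with 4391 at an unadjusted p under 0.05 and a smallest adjusted p of 0.22. Without A95 replicate 1 the counts were 447 higher and 725 lower, A95 replicate 2 then being the single array at passage 95. That array stood apart, with correlations of 0.942 to 0.948 with the other A-labelled arrays and 2748 rows at least 1 log2 from A95 replicate 1. MKI67 had a slope of 0.19 ± 0.11 (SE) per 10 passages (adjusted p = 0.396), CDKN1A one of -0.19 ± 0.07 (adjusted p = 0.312) and FOXE1 one of -0.15 ± 0.09 (adjusted p = 0.425). Slopes were above 0 in 38 of 39 mitosis genes, 41 of 42 replication genes and 37 of 42 histone genes, against 58.5% of all genes, and 2, 12 and 6 of them had an unadjusted p under 0.05, against 15.8% of all genes. Of the 239 genes called lower in the step, 174 had a slope above 0 (72.8%), and of the 87 called higher, 52 (59.8%). These shares are given as a description. The rise was not even over the arrays. The mean deviation of the mitosis list was -0.56 in A50 replicate 2 and -0.65 in A58 replicate 1. It was 0.49 in A58 replicate 2, 0.43 in A67 replicate 1 and 0.80 in A67 replicate 2. In A95 replicate 1 it was 0.79 and in A95 replicate 2 -0.07. Without A95 replicate 1 the slopes above 0 were 32 of 39 mitosis, 36 of 42 replication and 27 of 42 histone genes and 60.3% of the genes called lower, against 57.1% of all genes. Without A95 replicate 2 they were 39, 42, 42 and 77.8%, against 56.8%. No gene of the step passed this test.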

How the data were processed

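The authors deposited 1 table of log2 values for 28869 rows and 14 arrays. The log base is read from the values. How the arrays were corrected and normalized is not stated in the labels. Arrays give no depth, and 2 arrays a side limit the precision. Rows were named from the platform annotation and updated by gene ID through RefSeq (19310 rows with 1 symbol, 1752 with several, 7807 with none). The brightest row stood for a gene, and no filter was applied. The step is a difference of means with no test. Labelled groups (all 14 arrays) and the slope (7 arrays) were fitted with limma 3.58.1 in R 4.3.3, two-sided, with Benjamini-Hochberg adjustment over all rows at 0.05. The fits were also run on simulated data with changes of known size. The share of changes of 1 log2 recovered is not given here, so 0 called rows do not show that no row differed.

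The arrays, gene lists and markers were chosen with earlier results of these data known. Named were the 12 largest rises and falls called, MKI67, CDKN1A, FOXE1, TERT, CDKN2A and CDKN2B, and up to 4 non-overlapping members of each list in the direction of its median. Other genes were singled out after their values were seen. No gene passed both the call and the slope test. The 24 gene lists and 8 marker lists, and the alternatives in the closing section, were computed by the same code. Replicates are biological duplicates per the labels, with nothing more said of separate cultures.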

Additional observations from a re-analysis of the deposited data

How the results depend on the processing

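All 47 named genes called in the step kept their direction in the 7 alternatives run for each (each of the 4 arrays left out, quantile normalization, centring on array medians, and subtraction of the median difference of genes of like level), and 0 moved by over 1.5 times. Some called genes near the limit fell short of 1 log2 in an alternative. Among them were TP53INP1 (0.89 after centring), DDIT3 (-0.88 without A50 replicate 1) and DKK2 (0.989 after quantile normalization). Of the 70 named genes not called, 9 moved by over 1.5 times with 1 array left out. Over all rows, 187 were called higher and 390 lower. With 1 array left out the counts ran from 208 to 281 higher and from 394 to 448 lower. The count of 281 came without A50 replicate 1. The counts were 112 higher and 274 lower without dim rows, and 87 higher and 239 lower with 1 row per gene. Among rows above the median level they were 60 higher and 240 lower. A limit of 0.58 log2 gave 1394 and 1302, a limit of 2 log2 gave 3 and 24, and all 4 differences past 1 log2 gave 62 and 221. The alternatives on rows above the median level and on like level were added after the data were seen. Of the 24 gene lists, 3 had a median whose sign turned in some alternative, namely collagens, TGF-beta response, and lung mesenchyme and forkhead factors.

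With the replicate block limma called 0 rows in each labelled contrast and 0 for the slope. The replicate numbers were not taken as pairs, since deviations correlated above 0.1 in 4 of 21 pairs of groups (-0.529 to 0.196). With 1 array left out, limma called 0 to 2 rows higher and 0 to 4 lower for A39 versus primary, 0 throughout for A50 versus A39, and 0 to 447 higher and 0 to 725 lower for the slope. Signal over background limits the dim rows, and no detection call was used.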
